A study of Sus scrofa with 8 samples.

Results

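The surfactant proteins and the surfactant lipid transporter of alveolar type II cells were followed in pig lung: SFTPA1, SFTPB, SFTPC, SFTPD and ABCA3. Members were all array probes, controls aside, that carry 1 of these 5 gene symbols and were detected well above background on 1 array or more. This gave 5 probes of 4 of the 5 genes, out of 43603 probes in the table and 34406 that met the same detection rule. SFTPA1 had 2 probes, A_72_P035561 and A_72_P225932, and SFTPB (A_72_P035501), SFTPC (A_72_P178141) and SFTPD (A_72_P146731) had 1 each. No probe was matched to ABCA3 by the names used here, so that ABCA3 has no value. All 5 probes were well above background on all 8 arrays, and each stood on the array as 1 spot.

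Lungs came from female pigs of 6 months in 4 groups of 2 animals. TH were Tibetan pigs kept at 3500 m and DL were Duroc pigs kept at 40 m, each breed in the place where it was raised. TL were Tibetan pigs taken from 3500 m to 40 m at 1 month of age, and DH were Duroc pigs taken from 40 m to 3500 m at 1 month of age. Each pig was hybridized alone to a one-color Agilent porcine array, and no allele, drug or other agent was given. The native groups (TH and DL) and the moved groups (TL and DH) each hold both breeds and both altitudes, so that a comparison that changes only breed or only altitude also sets a moved group against a native one. The 2 pigs of a group were picked at random at harvest. Since a group is 2 animals, p-values measure the spread between these pairs only.

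Pulmonary surfactant is a film of lipid and protein that lowers surface tension in the alveoli. Type II cells make it, store it in lamellar bodies and secrete it. SFTPB and SFTPC encode the small hydrophobic proteins SP-B and SP-C, which help the lipid to spread at the air surface. SFTPA1 and SFTPD encode the collectins SP-A and SP-D, soluble lectins that bind microbes and take part in the turnover of surfactant, and ABCA3 pumps lipid into the lamellar body. In whole lung, fewer type II cells and less RNA per cell cannot be told apart. Sequences of the probes, transcripts and proteins were not used here.

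Duroc pigs taken to high altitude had the highest SFTPB, SFTPD and SFTPC, and TL had the lowest SFTPD. SFTPD was the member with the widest range, at 1.31 log2 units between DH and TL. Values are the deposited log2 values, which have the same distribution on every array, with a median of 7.40. Differences were fitted by limma on all 34406 probes, and a probe was called at a Benjamini-Hochberg FDR below 0.0001, the criterion of the study. The native groups TH and DL shared 1 slide and the moved groups TL and DH the other. The interaction of breed and altitude is therefore the same contrast as slide, and they cannot be told apart. Each comparison that changes only breed or only altitude also spans the slides. Only TH against DL and TL against DH lie within a slide, and these pairs differ in breed and altitude at once.

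Both TL arrays stood apart from the other 6 arrays. Their median raw signals were 324 and 333.5, against 207.5 to 230 on the others, and 31723 and 31641 of their probes were well above background, against 26466 to 29319. Arrays of the same group had Pearson's r of 0.981 to 0.994 across probes. How the arrays are scaled to each other then moves every difference that involves TL. For this reason each difference was also computed under 4 other scalings: processed signals set to the 75th percentile of each array, to the 95th percentile, processed signals not scaled, and raw signals after a normal-exponential background correction and quantile normalization. With the deposited values, the median of all tested probes was 0.12 for TH minus TL and -0.21 for TL minus DL. At the 75th percentile the same medians were 0.23 and -0.30, without scaling -0.24 and 0.16, and at the 95th percentile -0.47 and 0.35. For DH minus DL and TH minus DH they stayed between -0.07 and 0.07 under all 5 scalings.

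SFTPD, which encodes SP-D, was measured at 14.82 and 14.82 in TH, 14.04 and 14.04 in TL, 15.36 and 15.34 in DH, and 14.84 and 14.86 in DL. DH was above all other arrays, TL was below all other arrays, and TH and DL lay together. The 2 arrays of a group differed by 0.003 to 0.029, against a median of 0.03 over 5222 tested probes with a mean of at least 13. DH was 1.41-fold above DL (log2 difference 0.50, SE 0.023, limma adjusted p = 6.37e-05). TL was 1.75-fold below DL (-0.81, SE 0.023, limma adjusted p = 3.85e-06), and TH was 1.72-fold above TL (0.78, SE 0.023, limma adjusted p = 4.34e-06). TH was 1.44-fold below DH (-0.53, SE 0.023, limma adjusted p = 5.47e-05).

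Within slides, SFTPD was 2.47-fold lower in TL than in DH (log2 difference -1.31, 95% interval -1.37 to -1.25, limma adjusted p = 1.45e-06). TH and DL, on the other slide, differed by -0.03 with a 95% interval of -0.09 to 0.03 (limma adjusted p = 0.329). The direction of every SFTPD difference other than TH minus DL held under all 5 scalings. TL minus DH ranged from -2.01 to -1.27, TL minus DL from -1.42 to -0.77, TH minus TL from 0.73 to 1.43, and DH minus DL from 0.50 to 0.59. TH minus DL lay between -0.05 and 0.01.

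SFTPD had a breed effect (Tibetan minus Duroc) of -0.67 (SE 0.016, limma adjusted p = 4.23e-06) and an altitude effect (high minus low) of 0.64 (SE 0.016, limma adjusted p = 5.79e-06). Breed and altitude are balanced over the slides. Both effects are formed from the same within-slide differences, TH minus DL (-0.03) and TL minus DH (-1.31). As TH minus DL was small, both rest almost wholly on TL against DH and are not separate results. TH and DL differ in breed and altitude at once, so that opposite effects and no effect cannot be told apart in that pair. The altitude difference was 0.78 within Tibetan and 0.50 within Duroc pigs. Their difference, the interaction, was 0.28 and was not called (SE 0.033, limma adjusted p = 0.000845). Under the 75th percentile the interaction was 0.83 (limma adjusted p = 1.35e-05), which is past the threshold.

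**Figure D1:**
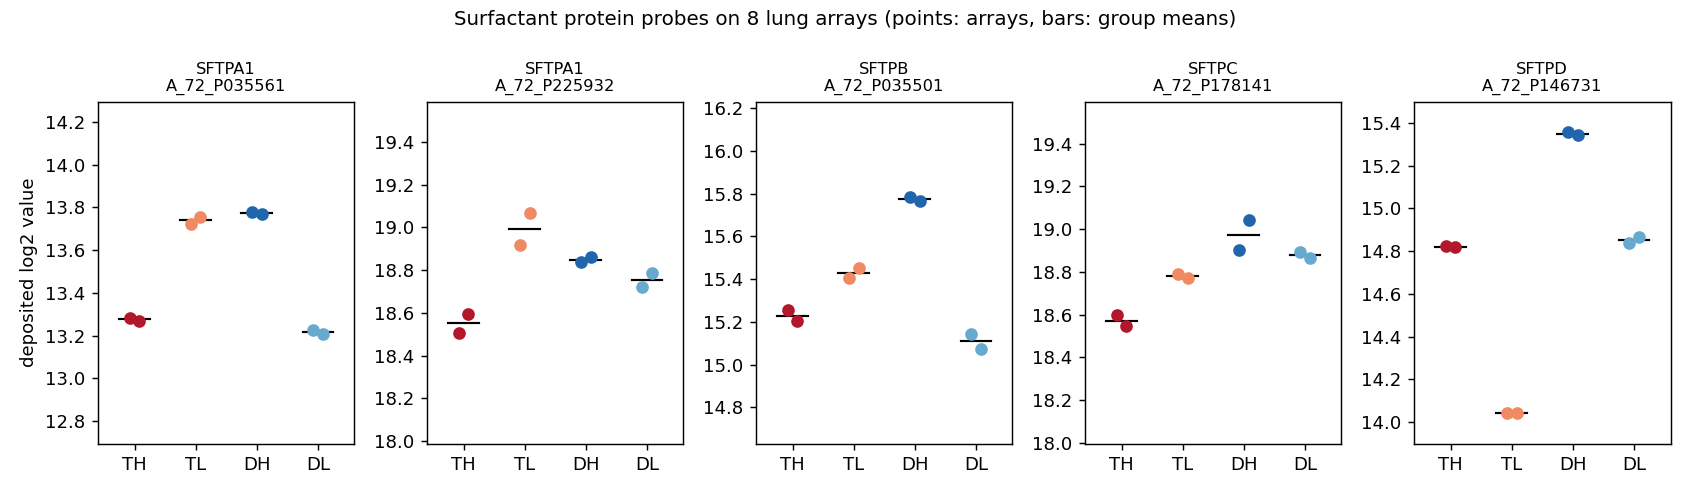
Deposited log2 values (y axis) of the 5 surfactant protein probes by group (x axis: TH, TL, DH, DL); each point is 1 array and each bar the mean of 2 arrays, and all panels span the same number of log2 units. SFTPD lies between 15.34 and 15.36 in DH and at 14.04 in TL, while the bright SFTPC and SFTPA1 (A_72_P225932) probes span 18.55 to 19.04 and 18.51 to 19.07.

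SFTPB, which encodes SP-B, was measured at 15.25 and 15.20 in TH, 15.40 and 15.45 in TL, 15.79 and 15.77 in DH, and 15.14 and 15.07 in DL. DH was above all other arrays, and the order of groups was DH, TL, TH, DL without overlap. DH was 1.59-fold above DL (log2 difference 0.67, SE 0.038, limma adjusted p = 0.000116), and TH was 1.46-fold below DH (-0.55, SE 0.038, limma adjusted p = 0.000228). Both missed the threshold of 0.0001. At the 75th percentile DH minus DL was 0.80 and passed it (limma adjusted p = 5.68e-05). Across the 5 scalings DH minus DL ranged from 0.67 to 0.80 and TH minus DH from -0.62 to -0.55.

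The breed by altitude interaction of SFTPB was -0.87 (SE 0.054, limma adjusted p = 7.37e-05). TH minus TL was -0.20 (limma adjusted p = 0.00546) and TL minus DL was 0.32 (limma adjusted p = 0.000811), and neither was called. Their directions turned at the 75th percentile, where TH minus TL was 0.53 and TL minus DL was -0.35. The interaction kept its sign and ranged from -0.89 to -0.27. At the 75th percentile, where it was -0.27, it was not called (limma adjusted p = 0.00591).

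SFTPC, which encodes SP-C and is made almost only by type II cells, was measured at 18.60 and 18.55 in TH, 18.79 and 18.77 in TL, 18.90 and 19.04 in DH, and 18.89 and 18.87 in DL. DH was highest and TH lowest, but DH and DL lay close, and TL was lowest at the 75th percentile, where TH minus TL was 0.45 (limma adjusted p = 0.00112) and TL minus DH was -0.88 and called (limma adjusted p = 6.98e-05). DH minus DL was 0.09 with a 95% interval of -0.04 to 0.23 (limma adjusted p = 0.191). TH was 1.32-fold below DH (-0.40, SE 0.053, limma adjusted p = 0.00209), and the breed effect was -0.25 (SE 0.038, limma adjusted p = 0.00231). With the deposited values no SFTPC difference was called. Under the 5 scalings DH minus DL ranged from 0.09 to 0.31, TH minus DH from -0.43 to -0.38 and the breed effect from -0.51 to -0.16, while the altitude effect lay on either side of 0, from -0.06 to 0.38. The raw SFTPC signal was 67.4% to 90.0% of the scanner's saturation value, and no spot was flagged as saturated. Whether the scanner response was compressed at this brightness was not tested.

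SFTPA1 was read by 2 probes that did not give the same pattern. A_72_P035561, which targets a RefSeq transcript of SFTPA1, was measured at 13.28 and 13.27 in TH, 13.72 and 13.76 in TL, 13.78 and 13.77 in DH, and 13.23 and 13.21 in DL. Its moved groups, both on 1 slide, lay together above its native groups, both on the other slide. DH was 1.47-fold above DL (0.56, SE 0.024, limma adjusted p = 5.52e-05) and TH was 1.41-fold below DH (-0.50, SE 0.024, limma adjusted p = 7.51e-05). TH minus TL was -0.46 (limma adjusted p = 3e-05) and TL minus DL was 0.52 (limma adjusted p = 1.95e-05). The interaction was -1.02 (SE 0.034, limma adjusted p = 9.29e-06), and this contrast cannot be told apart from slide. Within slides TH minus DL was 0.06 (limma adjusted p = 0.0965) and TL minus DH was -0.03 (limma adjusted p = 0.26). The latter was -0.63 at the 75th percentile and was called there (limma adjusted p = 7.46e-06), with a range of -0.63 to 0.11 under the 5 scalings.

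Under the 75th percentile, the TL arrays of A_72_P035561 came down to the level of DL, with TL minus DL at -0.03 (limma adjusted p = 0.277) and TH minus TL at 0.11 (limma adjusted p = 0.00706). DH minus DL stayed at 0.60 (limma adjusted p = 3.39e-05), and its range under the 5 scalings was 0.51 to 0.60. The interaction was -0.49 there (limma adjusted p = 8.31e-05) and ranged from -1.10 to -0.49.

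A_72_P225932, named SFTPA1 by the study's tables through an Ensembl transcript, was measured at 18.51 and 18.60 in TH, 18.92 and 19.07 in TL, 18.84 and 18.86 in DH, and 18.72 and 18.79 in DL. Its order was TL, DH, DL, TH. DH minus DL was 0.09 with a 95% interval of -0.07 to 0.26 (limma adjusted p = 0.26), and no difference of this probe was called. TH minus TL was -0.44 (SE 0.064, limma adjusted p = 0.00181) and turned to 0.20 at the 75th percentile. TH minus DH was -0.30 (SE 0.064, limma adjusted p = 0.0125), between -0.33 and -0.27 under the 5 scalings. Its raw signal was 69.0% to 88.9% of the saturation value, against 1.65% to 2.40% for A_72_P035561. The within-array log2 ratio of the dim over the bright SFTPA1 probe was lowest in DL, at -5.48, and highest in DH, at -5.15, with TH at -5.35 and TL at -5.26. The groups span 0.32, and the 2 arrays of a group differ by at most 0.089. The size of this ratio says nothing of transcript levels, since probes bind with unequal strength.

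**Figure D2:**
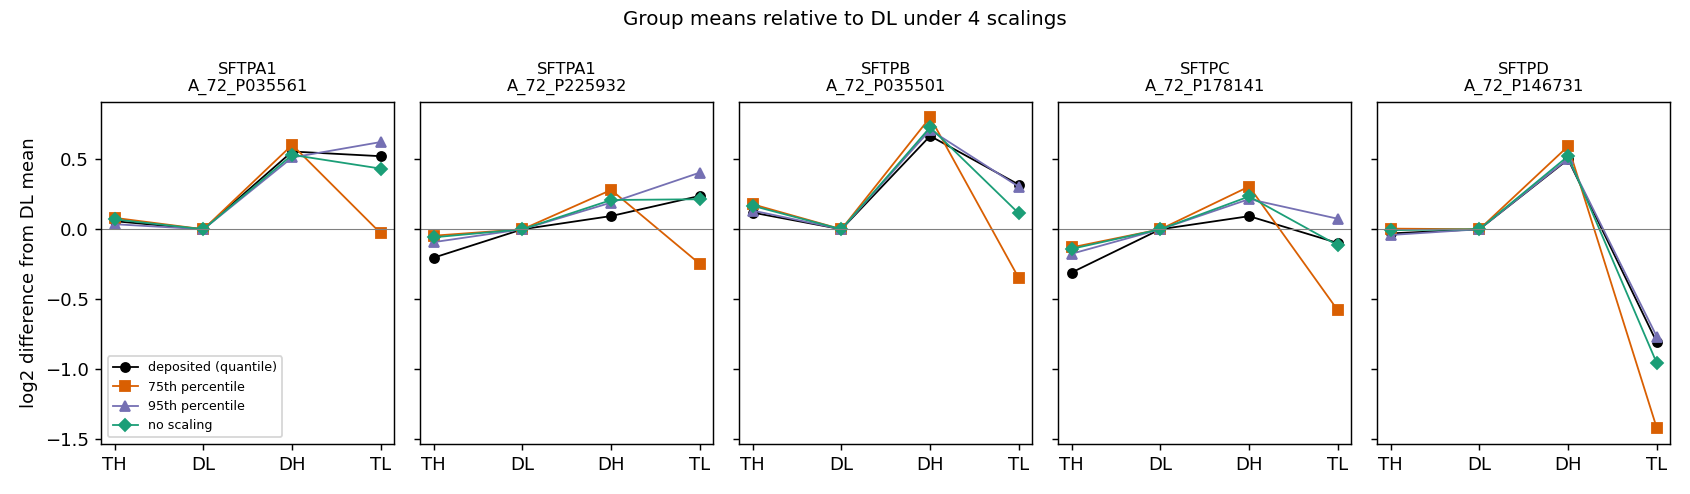
Group means of each surfactant probe as log2 differences from the DL mean (y axis) for TH, DL, DH and TL (x axis) under 4 scalings of the arrays, with lines joining the groups of a scaling. DH minus DL is above 0 in every panel, from 0.09 to 0.80, and TL changes most with the scaling: for SFTPB it is 0.32 above DL with the deposited values and 0.35 below at the 75th percentile, and for SFTPD it stays below DL, from -1.42 to -0.77.

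All 5 probes were higher in DH than in DL, with a median log2 difference of 0.50 against -0.01 over all tested probes, of which 49.0% were above 0. The probes of SFTPD and SFTPA1 (A_72_P035561) rose, 2 of 5, where 9.95% of all tested probes were called and 5.83% were called as higher. All 5 probes were lower in TH than in DH, with a median of -0.50 against -0.01 over all tested probes, of which 49.1% were above 0. The same 2 probes were called, where 9.33% of all tested probes were called and 5.16% as lower. All 5 members were well above background on all 8 arrays. In a fit of the 24775 such probes, 6804 were called in DH minus DL and 6203 in TH minus DH, with 3 members in each. Both comparisons share the DH arrays and are not independent. The sign of DH minus DL and of TH minus DH was the same for all 5 probes under all 5 scalings. These differences use no TL array, so that leaving out both TL arrays changes only their variance and adjustment. No member was then called (limma adjusted p = 0.000411 for SFTPA1 A_72_P035561 and 0.000536 for SFTPD in DH minus DL), and over all tested probes 0 were called in DH minus DL and 228 in TH minus DH.

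In the other comparisons the members' calls were split or few. In TH minus TL, SFTPD was called as higher and SFTPA1 (A_72_P035561) as lower in TH, where 37.1% of all probes were called, 20.5% as higher and 16.6% as lower. In TL minus DL, SFTPA1 (A_72_P035561) was called as higher and SFTPD as lower, where 37.5% of all probes were called, 16% as higher and 21.5% as lower. SFTPD alone was called for breed, where 27.4% of all probes were called and 14.6% as lower, and for altitude, where 26.3% were called and 14% as higher. The interaction was called for SFTPB and SFTPA1 (A_72_P035561), 2 of 5, where 28.4% of all probes were called and 13.5% as lower. These counts of 1 or 2 members are near the shares of all probes and are no result about the members as a set. Within slides, SFTPD alone was called in TL minus DH, where 33.9% of all probes were called and 18.8% as lower. At the 75th percentile 4 of 5 members were called there, all but SFTPA1 (A_72_P225932), where 40.3% of all probes were called and 25% as lower. No member was called by limma in TH minus DL, where 14.1% of all probes were called. At an FDR below 0.05, 3 of 5 members were called there by limma, where 61.5% of all tested probes were called. At the study's threshold the two-way model without moderated variances also called 0 members, and 2063 of all tested probes.

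With 2 arrays per group, leaving out any 1 array cut the calls of the whole fit at the study's threshold, from 3424 to 0 to 40 probes in DH minus DL and from 3211 to 110 to 263 in TH minus DH. SFTPD kept its call for breed and for TL minus DH without any 1 of the 8 arrays, with limma adjusted p of at most 9.66e-05 and 6.11e-05. Its altitude effect was no longer called without either TL or either DL array (limma adjusted p up to 0.000119), TH minus TL without either TH or either TL array (up to 0.000127), and TL minus DL without either TL array (up to 0.000118). DH minus DL and TH minus DH were called for no member without any 1 array. For SFTPD the limma adjusted p of DH minus DL was then between 0.000425 and 0.00101, and its value between 0.49 and 0.51. For SFTPA1 (A_72_P035561) the value was between 0.55 and 0.56, with limma adjusted p between 0.000374 and 0.000966.

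Ratios of 2 processed signals on the same array do not change when an array is scaled by 1 factor, though a quantile normalization can change them. They are given as a description without a test. The processed signal of SFTPD over that of SFTPB was 0.736 to 0.762 in TH, 0.731 to 0.733 in DH and 0.818 to 0.873 in DL, and 0.395 to 0.410 in TL. Over SFTPA1 (A_72_P035561), SFTPD was at 2.98 to 2.998 in TH, 3.12 to 3.14 in DH and 3.11 to 3.20 in DL, and at 1.19 to 1.21 in TL. TL was below every array of the other groups in both ratios. The same held over SFTPC, at 0.0362 to 0.0372 in TL against 0.0639 to 0.0850 in the other groups, and over SFTPA1 (A_72_P225932), at 0.0306 to 0.0324 in TL against 0.0706 to 0.0905. On the log2 scale the TL ratios of SFTPD lay 0.94 to 1.36 below the mean of the other groups. Between SFTPB and SFTPC, the log2 ratio was highest in DH, at -3.19, and lowest in DL, at -3.68, with TH at -3.38 and TL at -3.46. The shift of SFTPD in TL was thus also seen relative to the other surfactant probes, and a ratio shows unequal change only.

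**Figure D3:**
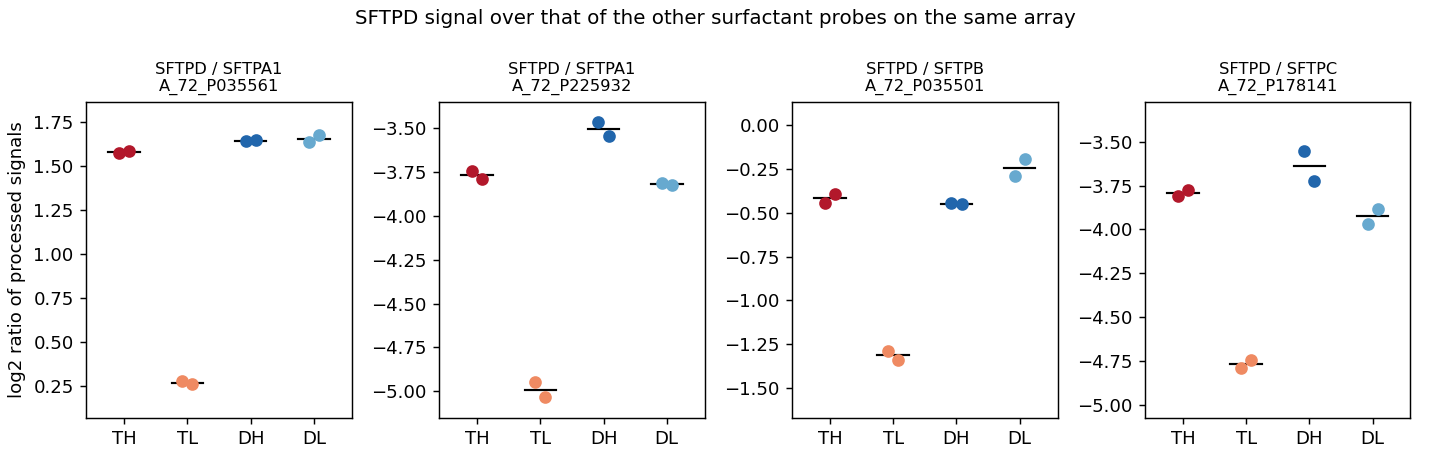
Log2 ratio of the SFTPD processed signal over that of each other surfactant probe on the same array (y axis) by group (x axis); points are arrays, bars are means of 2 arrays, and panels span the same number of log2 units. TL lies 0.94 to 1.36 below the mean of TH, DH and DL in every panel, and no TL array overlaps another group.

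In the RefSeq annotation of Sscrofa11.1, SFTPD, MBL1 and SFTPA1 follow each other on chromosome 14, with the mannose-binding lectin gene MBL1 between the pair. SFTPC lies elsewhere on chromosome 14, and SFTPB and ABCA3 lie on chromosome 3. MBL1, well above background on 4 of 8 arrays, was highest in TH, with a mean of 5.73, and lowest in TL, with a mean of 4.85 (5.61 for DH, 5.04 for DL). Its TH minus TL of 0.89 was called (SE 0.059, limma adjusted p = 7.52e-05), but lay between -0.03 and 0.89 under the 5 scalings. Its DH minus DL of 0.57 was not called (limma adjusted p = 0.000833).

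Other genes of the surfactant system were taken from lists, each gene at its brightest probe. Their counts are read against the shares of all tested probes called. These were 9.95% in DH minus DL, 9.33% in TH minus DH and 37.1% in TH minus TL. No list was tested against these shares. Of 16 other markers of type II cells, 7 had a tested probe. Among them SLC34A2, the phosphate transporter of type II cells, was highest in TL, with a group mean of 14.99, against 12.75 in DH, 12.24 in TH and 11.83 in DL. It rose in DH over DL by 0.92 (SE 0.035, limma adjusted p = 3.98e-05), the only one of the 7 called in that comparison. TL, where SFTPD was lowest, was thus highest for SLC34A2, with TH minus TL at -2.75 (limma adjusted p = 6.04e-07), from -2.81 to -2.11 under the 5 scalings. The amino acid transporter SLC6A14 had an interaction of 2.12 (limma adjusted p = 1.82e-05), from 1.11 to 2.12 under the 5 scalings, against -3.67 for SLC34A2 (limma adjusted p = 1.04e-06). CTSH, a protease that processes the SP-B and SP-C precursors, had means of 14.69, 13.99, 14.54 and 13.95 in TH, TL, DH and DL. Its DH minus DL of 0.59 was not called (limma adjusted p = 0.00025). SLC6A14 and CLDN18 were lower in DH, at -0.785 and -0.346, and were not called either (limma adjusted p = 0.000328 and 0.00615). Of the 7 markers, 4 were above 0 in DH minus DL under all 5 scalings and 2 were below. In TH minus TL, CTSH, at 0.71 (limma adjusted p = 5.49e-05), and SLC6A14, at 1.33 (limma adjusted p = 2e-05), were called as higher in TH, as SFTPD was. SLC34A2 and CDH1 were called as lower, and all 4 kept their sign under the 5 scalings. The median DH minus DL of these 7 genes was 0.02, between 0.01 and 0.10 under the 5 scalings, against 0.30 to 0.45 for the 4 surfactant protein genes. For SFTPA1 this used its brightest probe, A_72_P225932, which is near saturation and had a DH minus DL of 0.09. That of A_72_P035561, at 0.56, is not in this median. LAMP3, NAPSA and NKX2-1 were among the listed genes with no named probe that was tested, so that only these 7 markers and the surfactant probes were read for type II cells. Of the 7, DLK1 was well above background on only 1 array, with group means from 3.9 in TL to 5.32 in TH. The 7 did not share a direction in DH minus DL or in TH minus TL. Whether they follow the number of type II cells was not tested.

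Of 20 genes of surfactant lipid synthesis, 9 were tested. In DH minus DL 1 of 9 rose, SCD, and none fell, with a median of -0.04. In TH minus TL, FASN, SCD and SREBF1 were higher in TH and none was lower, and these signs held under all 5 scalings. SREBF1, a regulator of lipid synthesis, had an interaction of 2.61 (SE 0.142, limma adjusted p = 4.46e-05), and fatty acid synthase FASN had one of 0.56 (SE 0.036, limma adjusted p = 8.61e-05), from 0.35 to 0.96 under the 5 scalings. Of 21 transcription factors and growth signals of surfactant genes, 14 were tested. In DH minus DL 0 of 14 rose and 2 fell, FGF7 and NFIB, with a median of -0.27 that lay between -0.33 and -0.24 under the 5 scalings. The interaction was -2.56 for KLF5, -2.42 for the glucocorticoid receptor NR3C1 and 1.99 for the growth factor FGF7 (limma adjusted p = 2.65e-06, 1.75e-06 and 2.74e-06). KLF5 and NR3C1 were highest in TL, with TH minus TL at -2.41 and -2.20. Their directions held under all 5 scalings.

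Of 18 genes of surfactant protein processing and the lamellar body, 9 were tested. In DH minus DL 0 rose and 1 fell, NEDD4L, a ubiquitin ligase that takes part in SP-C trafficking, with a median of -0.22. In TH minus TL 4 were called as higher and 3 as lower in TH, where 20.5% and 16.6% of all tested probes were. Of the 7 called, 5 held their sign under all 5 scalings. The lipid flippase ATP8A1 and the chaperone HSPA5 had interactions of -2.25 and -1.51, and HPS1, a gene of lysosome-related organelles, had one of 1.25 (limma adjusted p = 1.25e-05, 4.15e-06 and 8.67e-06). Under the 5 scalings that of HPS1 lay between 0.31 and 1.25 and that of HSPA5 between -1.58 and -0.98. Of 16 genes of surfactant recycling and clearance, 9 were tested. GGT1 rose in DH over DL and none fell, and 2 of 9 fell in TH against DH, the GM-CSF receptor CSF2RA and GGT1. The purinergic receptor P2RY2, which triggers surfactant secretion, had an interaction of 2.25 (SE 0.097, limma adjusted p = 2.01e-05), and of 1.25 to 2.25 under the 5 scalings.

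Of 14 other collectins and receptors of SP-A and SP-D, 9 were tested. No gene was called in DH minus DL, though the median was 0.51 and ranged from 0.38 to 0.54 under the 5 scalings, and 7 of 9 were above 0 under all of them. In TH minus DH 3 of 9 fell, with a median of -0.50, where 5.16% of all tested probes were called as lower. COLEC11, a soluble collectin, had group means of 11.48 in DH, 10.86 in DL, 9.80 in TH and 7.57 in TL. DH was highest and TL lowest, as for SFTPD, in which TH and DL lay together. TH minus TL of COLEC11 was 2.22 (SE 0.039, limma adjusted p = 1.08e-06) and between 1.23 and 2.22 under the 5 scalings. The scavenger receptor CD36 had an interaction of -0.74 (SE 0.039, limma adjusted p = 3.94e-05), which lay between -0.75 and -0.14 under the 5 scalings.

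**Figure D4:**
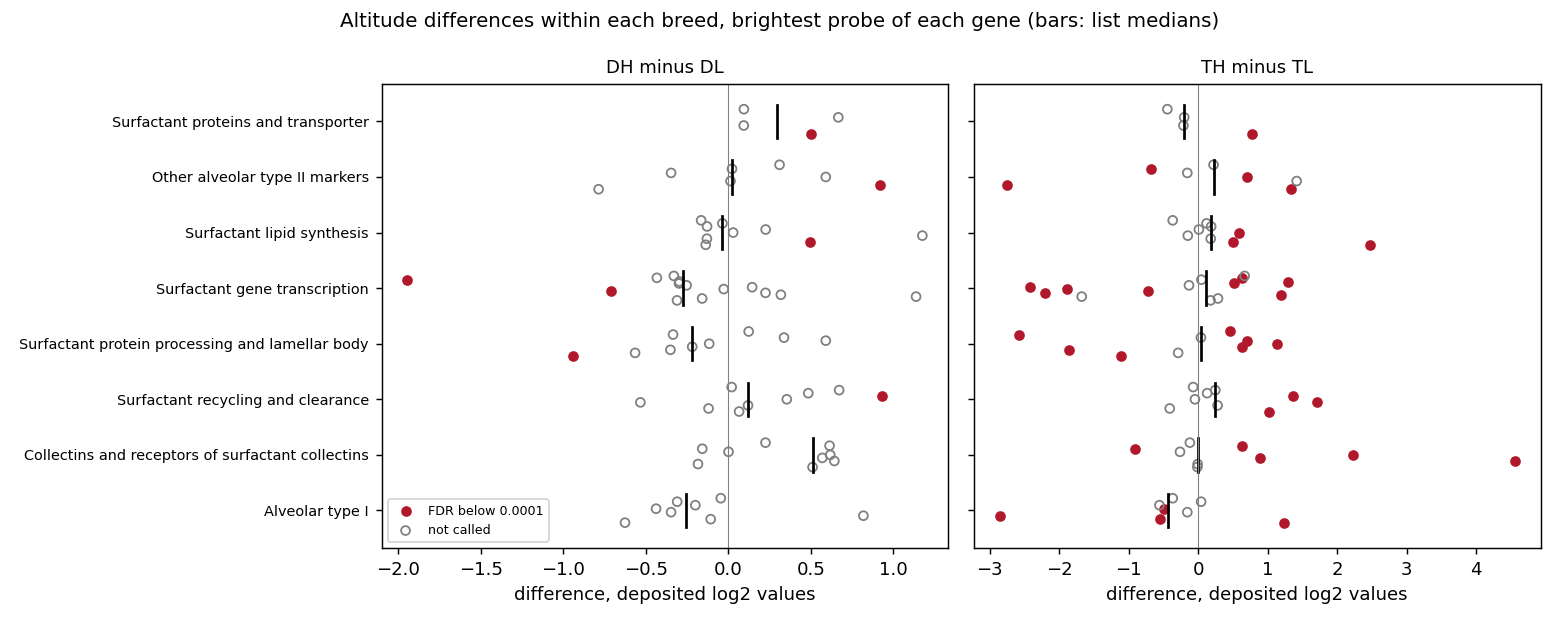
Log2 differences (x axes) of DH minus DL (left) and TH minus TL (right) for the tested genes of the surfactant lists and of alveolar type I markers (rows), each gene at its brightest probe; filled points were called at an FDR below 0.0001 and bars are list medians. In DH minus DL the medians of the surfactant proteins (0.30) and of the collectins and receptors (0.51) lie to the right of 0. That of the transcription list (-0.27) lies to the left. SFTPA1 is shown by A_72_P225932.

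Markers of other cells in the lung also moved between the groups. For breed, 12.8% of all tested probes were called as higher and 14.6% as lower in Tibetan pigs. In DH minus DL, 5.83% were called as higher and 4.12% as lower. No marker list was tested against these shares. All 4 tested secretory airway markers of 11 listed were higher in Tibetan pigs, with a median breed effect of 3.13, and the log2 of their summed level was 17.82 to 17.99 in TH and TL, against 16.16 to 16.54 in DH and DL. BPIFA1 and AGR2 led them. Of 10 endothelial markers 6 were tested, and 5 were lower in Tibetan pigs, with summed levels of 17.97 to 18.12 in TH and TL against 18.38 to 18.48 in DH and DL. Of 10 alveolar macrophage markers 6 were tested, 4 of them lower and 1 higher in Tibetan pigs, but of these SIGLEC1 lay on either side of 0, from -0.50 to 0.06, under the 5 scalings. Their summed level was lowest in TH, at 17.23, and highest in DL, at 18.42. A summed level mostly follows the brightest genes of its list, here LYZ and CD163. LYZ was at 13.48 in TH and 17.44 in DL, while CD163 was at 16.77 and 16.79. The brightest gene was PIGR in the airway list and CAV1 in the type I list. In DH minus DL, 0 of 6 endothelial and 0 of 8 alveolar type I markers were called, and the summed type I level was 18.43 to 18.49 in DH and 18.63 to 18.72 in DL. Of 9 tested skeletal muscle markers 3 rose and 1 fell in DH over DL. Among 6 fibroblast markers 1 rose and 1 fell, and the only tested ciliated marker, SPAG6, fell. Of 3 erythroid markers 0 were called in DH minus DL and 2 were higher in Tibetan pigs. The lowest value in the whole table was 2.89, so that a value above 0 does not show detection. The muscle marker MYL1 had means of 3.05 in DH and 3.03 in DL and was well above background on 2 of 8 arrays. TNNT3 was so on 5 of 8. The part of these cells in the surfactant differences was not tested.

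Among 3502 named genes that were well above background on all 8 arrays, the profiles most like each member were found by the root mean square difference over the 8 arrays, with each profile centred on its mean. For SFTPD these were the hyaluronidase HYAL2 (0.022), the kinase PDK3 (0.048) and SUMO3 (0.058), where the median gene was at 0.484. For SFTPB they were LOC780435 (0.064), SNCG (0.075) and SLC9A3R1 (0.091), and for SFTPC they were YWHAZ (0.031), DROSHA (0.052) and the complement gene C2 (0.059). For SFTPA1 they were ZCCHC6 (0.053), the plasma protein gene HP (0.064) and TPD52L1 (0.077) by A_72_P035561, and HEY1 (0.066) and PSMD10 (0.073) by A_72_P225932. No gene was named for both SFTPA1 probes. The member genes were left out of the candidates, so their likeness to each other was not tested by this measure. It shares all 8 arrays and their scaling.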

How the data were processed

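RNA of 8 lungs (2 per group) was hybridized to 8 Agilent arrays. The authors extracted spots with Feature Extraction, version 10.7.3.1 per the file headers and 9.1 per the labels' processing notes. They deposited raw and processed intensity of each spot, and a table of log2 values that the methods call RMA normalized. That table has 1 distribution on all arrays and follows the rank of the processed intensity (Spearman's rho at least 0.999996). Its exact steps were not given in the sources used here.

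Main values were the deposited log2 values. Control spots were left out. The fit used limma 3.58.1 (R 4.3.3) on the 34406 of 43603 probes that 1 array or more detected well above background, with a mean per group, moderated variances and Benjamini-Hochberg adjustment over these probes. Breed is Tibetan minus Duroc, altitude is high minus low, and their interaction subtracts the Duroc altitude difference from the Tibetan one. A call is an FDR below 0.0001. SE are limma's, and intervals are 95%. Levels across probes were not compared. The number of arrays limits the precision. Tables and figures were made in Python 3.11.15 with numpy 2.4.6, pandas 2.3.3 and matplotlib 3.10.9, and the fit was tested on simulated data.

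Symbols came from the study's tables (3655 probes) and from RefSeq accessions of the array (2683 of 3250 probes matched). Both sources named 660 probes, with equal symbols for 98.3%. This left 5678 named probes of 3958 genes. Of each list, counts were taken at the brightest probe of a gene, and the genes named were the 3 with the largest called interaction. MBL1, CTSH, the defining genes of the other lists, and the genes called alone in a comparison were named after their values were seen. One of the most alike genes is not reported here. The members, the 15 lists and the tests were chosen with earlier results of these data known.

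Alternatives were other scalings and background corrections, filters on dim probes, outlier spots left out, a model without moderated variances, limma with an intensity trend, FDR below 0.01 or 0.05, blocks for replicate number or slide, and leaving out single arrays. Unscaled signals, the 95th percentile and both TL arrays left out were added after seeing the data.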

Additional observations from a re-analysis of the deposited data

Results flagged for a closer look

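The altitude differences of the breeds differed in 2 of the 5 surfactant probes by the limma interaction term, where 28.4% of all tested probes were called. With the deposited values TH minus TL was below 0 and DH minus DL above 0 in both, but at the 75th percentile TH minus TL was above 0, at 0.53 for SFTPB (limma adjusted p = 8.41e-05) and 0.11 for SFTPA1 (A_72_P035561). For SFTPB the interaction was -0.87 (limma adjusted p = 7.37e-05) and for SFTPA1 (A_72_P035561) it was -1.02 (limma adjusted p = 9.29e-06). Slide and interaction cannot be told apart in this design. At the 75th percentile the values were -0.27 and -0.49, and without any 1 array neither was called.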

How the results depend on the processing

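Over 45 values of the member probes (5 probes in 9 comparisons) and all alternatives, 1075 values were computed, of which 884 kept their direction and their side of the threshold, 117 lost the call, 52 gained one and 22 changed sign. The processed signal with quantile normalization and the left-out outlier spots changed no count of called members. The slide as a block in place of the interaction is the same model and tests nothing. Detection on all 8 arrays gave 3 for DH minus DL and TH minus DH, where 6804 and 6203 of 24775 tested probes were called. Detection on both arrays of a group gave 3 for DH minus DL, where 4505 of 31689 tested probes were called. The 95th percentile also gave 3 for DH minus DL, where 4015 of 34406 were called.

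Counts of called members changed as follows, and those of all tested probes moved too: for DH minus DL from 3424 to 1055 with raw signals, 3980 at the 75th percentile, 3724 with local background, 2343 with no filter, 929 without moderated variances, 8407 with the trend, 2155 unscaled and 0 with the replicate block or without both TL arrays. Raw signals with quantile normalization gave 1 for the interaction and for TL minus DL, and 0 for TH minus TL, DH minus DL and TH minus DH. Calls among all tested probes then fell from 9786 to 7238 for the interaction and from 12906 to 10297 for TL minus DL. They fell from 12777 to 10146 for TH minus TL and from 3211 to 1517 for TH minus DH. The 75th percentile gave 3 for breed and altitude, 1 for TL minus DL and 4 for TL minus DH. Calls among all tested probes rose there from 9424 to 11360 for breed and from 9041 to 10387 for altitude. They rose from 12906 to 15096 for TL minus DL and from 11665 to 13872 for TL minus DH. Local background gave 0 for TH minus DH, where 3732 of all tested probes were called. No filter on dim probes gave 1 for the interaction and 0 for DH minus DL and TH minus DH. Of all probes, 8620 were then called for the interaction and 2332 for TH minus DH. The model without moderated variances gave 1 for the interaction and for TH minus DH, where 5663 and 1190 of all tested probes were called. The trend with robust variances gave 2 for altitude and for TL minus DH, and 3 for the interaction, DH minus DL, TH minus DH and TL minus DL. Of all tested probes, 13398 were then called for altitude and 15479 for TL minus DH. For the interaction, TH minus DH and TL minus DL they were 14169, 7698 and 16667. Unscaled signals gave 0 for the interaction, DH minus DL and TH minus DH, and 1 for TH minus TL and TL minus DL. Of all tested probes, 6650 were then called for the interaction and 1961 for TH minus DH. For TH minus TL and TL minus DL they were 10392 and 8968. Without both TL arrays, with deposited values or at the 75th percentile, DH minus DL and TH minus DH gave 0. For TH minus DH, 228 and 139 of all tested probes were then called. FDR below 0.01 gave 2 for breed, altitude and TL minus DH, 4 for the interaction, TH minus TL and TH minus DH, and 1 for TH minus DL, with 3 for DH minus DL and TL minus DL. At that limit 15289 to 23660 of all tested probes were called, by comparison. FDR below 0.05 gave 3 for breed, altitude, TH minus DL and TL minus DH, 5 for the interaction, TH minus TL and TH minus DH, 4 for TL minus DL and 3 for DH minus DL, where 58.9% to 77.4% of all tested probes were called.

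Without any 1 array, counts were 1 for breed and TL minus DH, 0 to 1 for altitude, TH minus TL and TL minus DL, and 0 for the interaction, DH minus DL, TH minus DH and TH minus DL.

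The replicate numbers did not pair the samples (deviations of same-numbered arrays correlated at -0.043 to 0.091). With the replicate block, 0 members were called for the interaction, DH minus DL and TH minus DH, and 1 for TH minus TL and TL minus DL. Of all tested probes, 4094 were then called for the interaction and 208 for TH minus DH. For TH minus TL and TL minus DL they were 7141 and 7191. The block changed no other count of members.

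Values that changed sign were these. For SFTPA1 (A_72_P035561), breed was -0.28 at the 75th percentile and -0.0142 unscaled, altitude was -0.0372 and TL minus DH 0.11 at the 95th, and TH minus TL was 0.11 and TL minus DL -0.0304 at the 75th. For SFTPA1 (A_72_P225932), altitude was 0.24, TH minus TL 0.20, TL minus DL -0.25 and TL minus DH -0.53 at the 75th, and breed was 0.0615 at the 95th and from -0.0682 to 0.0087 without any 1 array (above 0 without TL replicate 1). For SFTPC, altitude was 0.38 at the 75th and 0.10 unscaled, the interaction was 0.14 and TH minus TL 0.45 at the 75th, and TL minus DL was 0.0749 at the 95th. For SFTPB, TH minus TL was 0.53 at the 75th and 0.0545 unscaled, and TL minus DL was -0.35 at the 75th. For SFTPD, TH minus DL was 0.0046 at the 75th, with or without the TL arrays. The cause was not tested. At 2 arrays per group and 2 probes near saturation, smaller differences cannot be read.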
